A study of Bactrocera oleae with 8 samples.

Results

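A custom array held 20516 contig entries of the olive fruit fly *Bactrocera oleae*. Of these, 129 had a higher signal in 2nd-instar larvae from both green and black olives than in larvae on artificial diet. They are described here as the contigs higher on both olives. An entry is a contig or other sequence, 1 of its strands or a segment, and numbers and shares of all contigs below are of entries. The choice used the scanner's log ratio, averaged over the spots of a contig and over arrays and put on the log2 scale. A contig was kept if green olives minus diet and black olives minus diet were each at least 0.8, if green minus black olives was above -0.8, and if its green olive signal was well above background in a share of at least 0.5 of its spots over all 8 arrays. These ratios were met by 176 contigs, of which 42 missed the signal requirement and 134 met it. The rule also left out 9 contigs by name, of which 5 were among the 134: 3 digestion contigs (contig04596, contig02711 and contig02414), contig04633 with a bacterial best match, and the nucleocapsid contig04635. The other 4 left out by name (contig03604, contig10157, contig09042 and contig07812) are detoxification contigs that did not meet the rule. The signal requirement was read in the green olive channel alone, where the members are high by the rule, so the count says nothing about contigs too dim to be read there. All 3 comparisons of feeding regimes entered the rule, and the values of the members are therefore given as a description with no test.

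Each of 16 channels held 1 extract of 20 pooled whole larvae, and no genotype or strain distinguished the groups. Every one of the 8 arrays carried green olive larvae (GO) in Cy5, with black olive larvae (BO) in Cy3 on 4 of them and artificial diet larvae (AD) in Cy3 on the rest. GO and BO larvae were dissected from infested fruit of 1 orchard in different seasons, whereas AD larvae hatched in the laboratory from eggs of females reared from that orchard's fruit and fed on a diet with yeast, soy hydrolysate, sugar and olive oil, so feeding regime, season and rearing cannot be told apart. No dyes were swapped, and any comparison of GO with another regime includes a dye difference, while BO and AD were read in the same dye. The methods name 4 GO replicates, so that the 8 GO channels may hold 4 extracts measured on both sets of arrays. Between 60.6% and 64.1% of spots were well above background in the GO channel of an array, 56.9% to 67.2% in the BO channel and 65.5% to 66.9% in the AD channel, and no spot was saturated. Levels below are normalized log2 intensities of a channel, and differences are log2 fold changes, as a mean ± SD over 4 arrays for GO against AD or BO, and as a mean ± SE of the fitted contrast for BO against AD. No level of 1 contig was set against that of another, since probes differ in how strongly they bind.

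Olive fruit fly larvae feed in the flesh of the olive, which holds phenolic compounds and protein that is hard to digest while the fruit is green, and they live with a bacterial symbiont in gut caeca. Insects on a plant diet are known to adjust gut proteases, which cut dietary protein, and enzymes that modify or export plant toxins. A larva taken from fruit also carries whatever microbes and viruses came with the fruit or its mother, and RNA of such passengers is extracted together with that of the insect.

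Probes were 60 bases long in the study's design, and contigs with no likeness to an arthropod protein received probes for both strands, the reverse ones named with the prefix rc. Of the 129 members, 78 were forward entries or had no prefix, 51 were rc entries, and together they came from 108 contigs. Entries of contigs probed on both strands made up 91 members (70.5%), against 65.0% of all entries on the array, a similar share. The study's tables of called contigs described 13 members, listed 48 without a description and did not hold the remaining 68.

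For 3 described members the study had designed RT-qPCR primers, which are shown because they are the sequences at hand that identify these transcripts. The pairs lie in contig03768, named jonah 65aiii after a digestive serine protease of *Drosophila*, in contig04528, which the study labels a serine protease, and in contig03020, which it treated as an N-acetyltransferase and placed among detoxification genes.
contig03768 forward: attaccaacggcaacaaagc
contig03768 reverse: gtgctgcccagatagacgat
contig04528 forward: gtcgtgtcgttgttatggcg
contig04528 reverse: tgttggagctgttcggtcaa
contig03020 forward: caaatagcgcacggaaccag
contig03020 reverse: ggatgaaccaaaacgagcgg
Each primer is 20 bases long, written 5′ to 3′ with no part marked.

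After normalization, the members had a median difference of 1.28 in GO minus AD (range 0.09 to 5.95) and of 0.98 in BO minus AD (range 0.08 to 4.06), beside medians of 0.009 for both over all contigs. Their median in GO minus BO was 0.21 (range -0.81 to 1.91), with 79 members above 0 and 50 below. By limma, with an adjusted p below 0.05 and a log2 fold change beyond 1 in either direction, 62 members passed as higher in GO than in AD, where 0.77% of all contigs tested passed as higher. In BO against AD 38 passed as higher, beside 0.327% of all contigs, and in GO against BO 16 passed as higher, beside 1.74%. No member passed as lower in any of the 3 comparisons, where 0.283%, 0.609% and 0.512% of all contigs did, and at an unadjusted p below 0.05 by limma 4 members were lower in GO than in BO and none in the comparisons with AD. Since the rule used these contrasts, nothing is read from the counts. Both comparisons with AD were passed by 37 members, GO against AD alone by 25, BO against AD alone by 1 and neither by 66. Of the 67 members that did not pass in GO against AD, 16 missed the fold change threshold only, 22 the p-value only and 29 both.

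**Figure D1:**
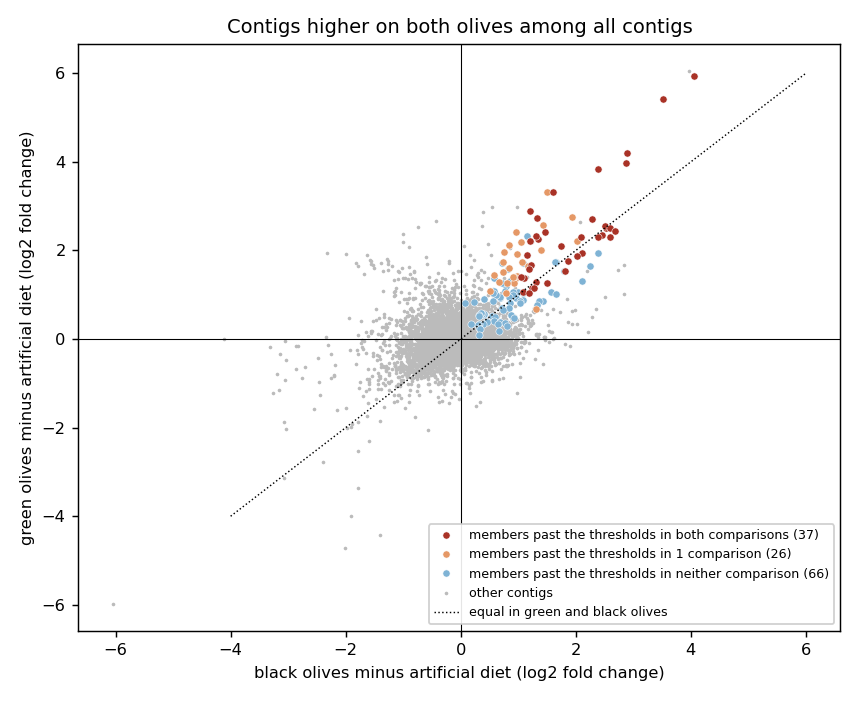
Each point is 1 contig, with black olives minus artificial diet on the x axis and green olives minus artificial diet on the y axis, both as log2 fold changes of the fit. The 37 members past the thresholds in both comparisons, the 26 past them in 1 and the 66 past them in neither are coloured, other contigs are grey, and the dotted line marks equal values in green and black olives.

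Of the 37 members past both thresholds, 24 lay within 0.5 of equality between GO and BO, 10 also passed as higher in GO than in BO, and their GO minus BO values ran from -0.29 to 1.91. The 10 members with the largest differences from AD, taking the smaller of the GO and BO values, included contigs graded from GO over BO to AD and contigs alike in GO and BO. At the edge of the rule, on the scanner's ratio, rc_contig09084 (0.80 in GO minus AD, 1.54 in BO minus AD), n_00212_rc(999-1449) (1.02 and 0.80) and rc_contig03852 (0.80 and 1.02) were just inside. Just outside were contig10524 (0.79 and 0.91), rc_contig12323 (3.89 and 0.78) and rc_contig08741 (0.96 and 0.78). After normalization the members just inside were lower, rc_contig09084 at 0.35 and 0.65, n_00212_rc(999-1449) at 0.09 and 0.32, and rc_contig03852 at 0.69 and 0.84. None of them passed the thresholds.

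Apart from contig07171 the graded entries had no description of their own. For rc_contig03638 and rc_contig04633 the forward strands, which are not members, are described as "conserved protein" and "leucine rich protein". Both forward strands are on the list of bacterial or ribosomal RNA matches. The forward strand contig03638 passed as higher in GO than in AD by limma (1.43) and did not pass in BO against AD (0.59). The largest differences belonged to rc_contig07171, which read 13.01, 13.86 and 13.97 at the lowest, median and highest of the 8 GO channels, 12.53, 11.46, 11.34 and 11.97 in the BO channels, and 7.39, 7.93, 7.80 and 7.67 in the AD channels. The 3 regimes did not overlap. It was higher by 5.95 ± 0.23 in GO than in AD, by 4.06 ± 0.25 in BO than in AD and by 1.88 ± 0.53 in GO than in BO. The forward probes of this contig, which the study's tables describe as "pg1 homology to homo sapiens" after a *Lactobacillus* protein, were also a member. They read 13.96, 14.64 and 14.88 in GO, 13.50, 12.39, 12.25 and 12.68 in BO, and 11.36, 11.21, 11.12 and 11.07 in AD, again with no overlap. The forward strand was higher by 3.33 ± 0.49 in GO than in AD and by 1.50 ± 0.34 in BO than in AD. By limma it did not pass the thresholds in BO against AD (adjusted p 0.05005).

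An equally graded pattern held for contig12892, with 12.87, 13.52 and 13.68 in GO, 12.25, 11.13, 11.09 and 11.65 in BO, and 7.82, 8.13, 7.92 and 7.84 in AD. Its differences were 5.43 ± 0.24 in GO minus AD and 3.52 ± 0.23 in BO minus AD, and on its reverse strand, rc_contig12892, 2.72 ± 0.29 and 1.33 ± 0.20. No function is given for either strand. For rc_contig03638 the GO channels read 10.14, 10.95 and 11.03, the BO channels 9.79, 9.19, 9.04 and 9.49, and the AD channels 6.64, 7.23, 6.89 and 6.89, which again kept the regimes apart. For rc_contig04969 they read 10.69, 11.09 and 11.62 in GO, 9.68, 11.30, 9.55 and 9.76 in BO, and 7.45, 7.43, 6.81 and 6.79 in AD. Here BO pool 2 lay within the GO channels and the other BO pools below them, all above AD.

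Segments of contig00541, which was probed in 3 stretches, were all members. Its reverse reading frame at positions 1475 to 1690 read 12.62, 13.25 and 13.44 in GO, 12.29, 11.71, 11.56 and 12.15 in BO, and 8.73, 8.70, 8.80 and 9.16 in AD. Its forward reading frame at 3 to 767 read 13.63, 13.84 and 14.07 in GO, 12.40, 12.12, 11.61 and 11.96 in BO, and 11.04, 10.60, 10.30 and 10.38 in AD. The order GO, BO, AD was thus kept in both frames with no overlap. The stretch between them, 768 to 1474, was well above background in 1 of 4 AD channels, and was higher by 2.22 ± 0.11 in GO than in AD and by 1.21 ± 0.13 in BO than in AD. Last of this kind, rc_contig04633 is the reverse strand of a contig left out by name. It read 14.51, 14.77 and 14.97 in GO, 13.43, 12.95, 12.57 and 12.95 in BO, and 12.20, 11.85, 11.91 and 11.75 in AD, higher by 2.90 ± 0.32 in GO than in AD and by 1.20 ± 0.21 in BO than in AD.

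The other leading members were alike in GO and BO, and none has a described function. For contig13923 the GO channels read 17.29, 17.56 and 17.75, the BO channels 17.48, 17.59, 17.41 and 17.57, and the AD channels 14.68, 14.87, 15.71 and 15.14. GO and BO overlapped, and every AD pool lay below both. It was higher by 2.52 ± 0.54 in GO than in AD, by 2.53 ± 0.24 in BO than in AD, and differed by -0.02 ± 0.13 between GO and BO. For rc_contig14214 the channels read 14.50, 14.56 and 14.67 in GO, 14.50, 14.46, 14.48 and 14.49 in BO, and 11.98, 11.57, 12.54 and 12.09 in AD, so that the AD pools were spread more widely than the BO pools. For contig11576 they read 16.09, 16.45 and 16.62 in GO, 16.45, 16.52, 16.21 and 16.59 in BO, and 13.86, 13.71, 14.32 and 14.06 in AD. Likewise contig13178 read 14.04, 14.35 and 14.70 in GO, 14.54, 14.54, 14.51 and 14.69 in BO, and 11.55, 11.85, 12.50 and 12.17 in AD. For contig10633 the values were 16.62, 16.86 and 17.11 in GO, 16.92, 16.93, 16.75 and 16.98 in BO, and 14.57, 14.27, 14.96 and 14.54 in AD. AD pool 3 was the highest of the AD pools in all 5 of these contigs, and was still below every GO and BO channel. Their GO minus AD differences ran from 2.34 to 2.56 and their BO minus AD differences from 2.46 to 2.69.

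**Figure D2:**
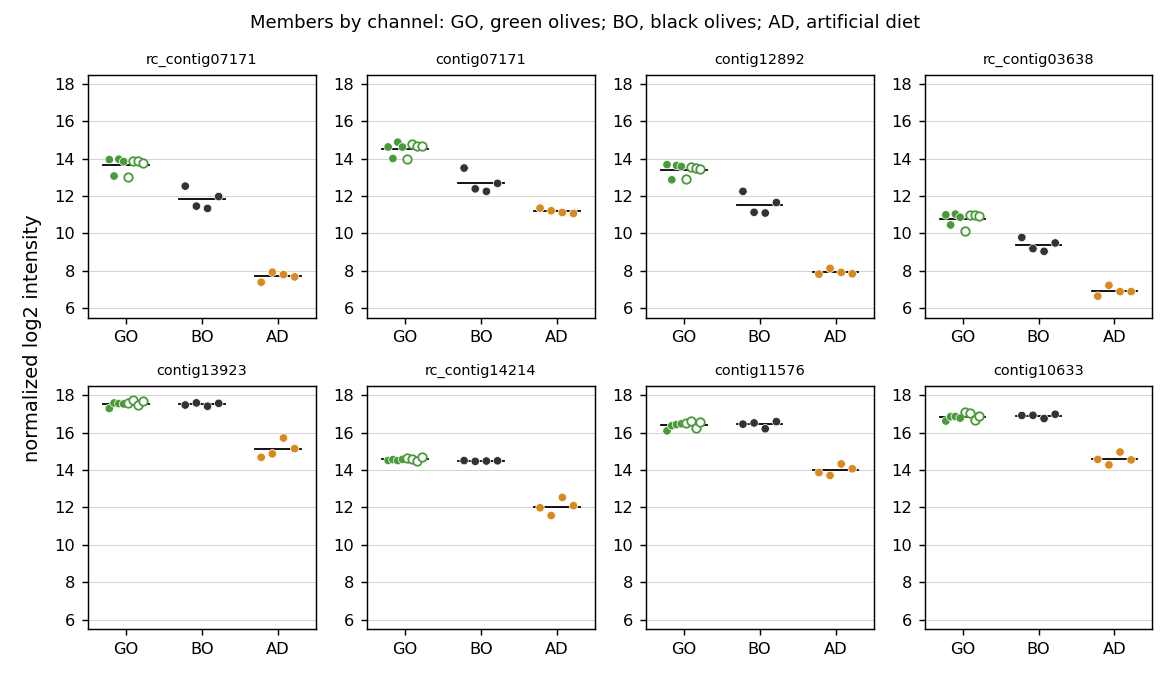
Normalized log2 intensity (y axis) of 8 members in each channel, with GO on the left, BO in the middle and AD on the right; filled green points are GO channels on arrays with BO, open green points GO channels on arrays with AD, and bars are means. In rc_contig07171, contig07171, contig12892 and rc_contig03638 BO lies between GO and AD, and in contig13923, rc_contig14214, contig11576 and contig10633 GO and BO overlap above AD.

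Both strands were members in 19 of the 72 member contigs that were probed on both strands, and 1 strand in the other 53. In those 53, the strand outside the members had median differences of 0.13 in GO minus AD and 0.20 in BO minus AD, and 49 of 53 were above 0 in both. Strands of a contig share its sequence and are not independent, and whether probes of 1 strand also bound label from the other was not tested. Both strands of a pair lay on the same side of 0 in GO minus BO in 18 of 19 pairs, above it in 11 and below it in 7, the exception being contig12711. In contig13923 the reverse strand was higher by 1.28 in GO than in AD and by 1.30 in BO than in AD, equal in both olives as on the forward strand, and in contig12892 and contig07171 both strands were higher in GO than in BO.

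**Figure D3:**
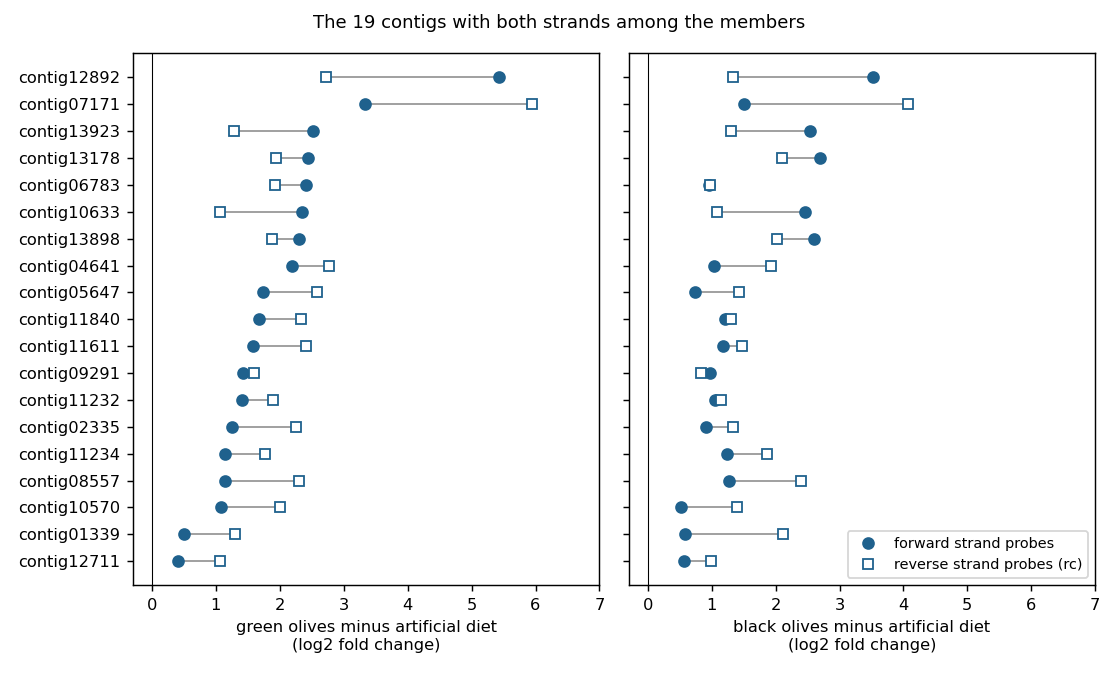
Log2 fold changes (x axis) of the forward strand (filled circles) and the reverse strand (open squares) of the 19 contigs (y axis) with both strands among the members, for green olives minus artificial diet on the left and black olives minus artificial diet on the right. All points lie right of 0, as the rule selects for, and the strands of contig07171 and contig12892 are farthest apart in green olives minus artificial diet. The forward strand of contig09291 and the reverse strand of contig02335, not well above background in any AD channel, are drawn at their fitted values.

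Among digestive genes, 2 members were serine proteases by the study's labels. The level of contig03768, whose *Drosophila* namesakes are serine proteases of the gut, was 15.38, 15.58 and 15.78 in GO, 15.34, 14.21, 15.36 and 14.78 in BO, and 13.54, 13.93, 14.34 and 13.45 in AD. BO was spread over more than 1 log2 unit, and its pool 2 overlapped the AD pools. It was higher by 1.74 ± 0.45 in GO than in AD and by 1.06 ± 0.28 in BO than in AD. That of contig04528, with its best match in a *Drosophila erecta* protein, was 14.98, 15.63 and 15.85 in GO, 15.11, 14.86, 15.19 and 15.22 in BO, and 13.82, 14.56, 14.21 and 13.91 in AD. Every olive channel was above every AD channel, by 1.40 ± 0.36 for GO and 0.92 ± 0.17 for BO on average. By limma contig03768 and contig04528 passed the thresholds in GO against AD, and neither passed in BO against AD. Of 34 contigs that the study placed under digestion, 11 passed as higher in GO than in AD and none as lower (1 at an unadjusted p below 0.05), while 2 passed as higher and 7 as lower in BO than in AD by limma, with medians of 0.42 and -0.81. The shares of all contigs passing were 0.77% higher and 0.283% lower in GO against AD, and 0.327% higher and 0.609% lower in BO against AD. This list and those for detoxification, amino acid metabolism, transposons, viruses and bacterial or ribosomal RNA matches were drawn from contigs the study had called on these arrays. The heat shock list was drawn from such contigs and from the study's housekeeping contigs. Its contig00907 and contig02774, both on the housekeeping list, passed in none of the 3 comparisons. Calls are thus built into these lists, and their counts and directions are not independent evidence. Another 3 contigs of the digestion list met the rule and were left out by name.

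The detoxification gene contig03020, whose best match is a *Drosophila virilis* protein, read 14.05, 14.42 and 14.61 in GO, 13.71, 14.08, 14.80 and 13.92 in BO, and 13.14, 13.01, 12.93 and 12.90 in AD. N-acetyltransferases attach an acetyl group to amines, a common step in making such compounds less reactive. All olive channels were above all AD channels, by 1.38 ± 0.33 in GO and 1.11 ± 0.25 in BO. Of 13 contigs under detoxification, 4 passed as higher in GO than in AD and 5 in BO than in AD by limma, none as lower (0 and 7 at an unadjusted p below 0.05), with medians of 0.38 and -0.33. Of the 13, 1 was a member and 4 were left out by name, none of which met the rule. The transporter among the members, contig08447, matches monocarboxylate transporters, which carry lactate, pyruvate and related acids across membranes. It read 8.41, 8.86 and 9.11 in GO, 9.90, 8.99, 9.26 and 9.57 in BO, and 8.11, 8.26, 7.98 and 8.31 in AD. It was the 1 member past the thresholds in BO against AD alone, higher by 1.31 ± 0.24 in BO and by 0.68 ± 0.42 in GO than in AD.

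Consecutive enzymes of serine synthesis were both members. Phosphoserine aminotransferase, which makes phosphoserine, and phosphoserine phosphatase, which releases serine from it, are shared by most animals. For the aminotransferase, contig01395, the channels read 12.02, 12.40 and 12.62 in GO, 12.58, 12.36, 12.80 and 12.37 in BO, and 10.96, 11.38, 11.26 and 11.50 in AD. For the phosphatase, contig00698, they read 12.14, 12.53 and 12.72 in GO, 11.92, 11.90, 12.23 and 12.07 in BO, and 10.64, 11.15, 11.20 and 11.32 in AD. No olive channel overlapped an AD channel in either gene. The aminotransferase was higher by 1.04 ± 0.34 in GO and 1.18 ± 0.21 in BO than in AD, and the phosphatase by 1.40 ± 0.12 in GO and 0.93 ± 0.08 in BO. By limma the aminotransferase passed in both comparisons with AD. The phosphatase passed in GO against AD and missed the fold change threshold in BO against AD. GO minus BO was -0.14 ± 0.34 for the aminotransferase and 0.47 ± 0.05 for the phosphatase. Of 5 contigs in an amino acid metabolism list, chosen by their descriptions, 3 passed as higher in GO than in AD and 3 in BO than in AD, with none lower, also at an unadjusted p below 0.05 by limma. The other 3 were 4-aminobutyrate aminotransferase (contig00237, -0.30 in GO minus AD and 1.01 in BO minus AD), glutamine synthetase (contig02665, 0.48 and 1.04) and glycine N-methyltransferase (contig03118, 1.004 and 0.466).

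**Figure D4:**
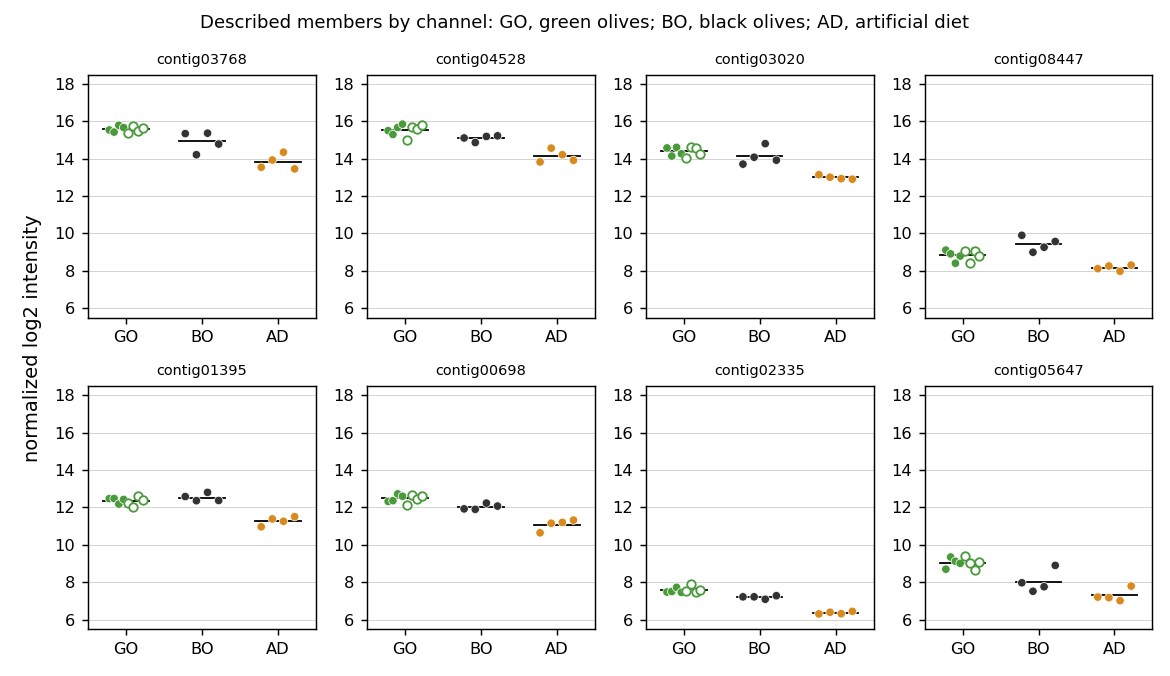
Normalized log2 intensity (y axis) of 8 described members in each channel, laid out with GO on the left, BO in the middle and AD on the right; open green points are GO channels on arrays with AD, and bars are means. Every olive channel is above every AD channel for contig04528, contig03020, contig08447, contig01395, contig00698 and contig02335, whereas BO and AD overlap for contig03768 and contig05647.

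Members with a best match outside insects included transposases, enzymes that move DNA elements. The *Serratia* protein matched by contig09291 belongs to an insertion sequence, a bacterial mobile element. This contig was well above background in all 8 GO channels (7.53, 7.70 and 8.17) and all BO channels (7.30, 7.41, 7.15 and 7.66), and in none of the AD channels (6.34, 6.35, 6.30 and 6.26). Against the lowest signal that counts as above background it was at least 2.59-fold higher in GO than in AD and at least 2.02-fold higher in BO than in AD, the bound for GO being open to a dye difference between Cy5 and Cy3. For contig02335, matching a transposase of an uncultured bacterium, the GO channels read 7.46, 7.52 and 7.88, the BO channels 7.22, 7.22, 7.09 and 7.28, and the AD channels, of which 3 were well above background, 6.31, 6.39, 6.31 and 6.44. It was higher by 1.26 ± 0.16 in GO and by 0.92 ± 0.12 in BO than in AD. By limma contig09291 and contig02335 passed in GO against AD, and both missed the fold change threshold in BO against AD. The reverse strands of both were members too. Among 5 contigs described as transposon genes, a list of contigs the study had already called, 4 passed as higher in GO than in AD, beside 0.77% of all contigs, and 1 as lower in BO than in AD, beside 0.609%, and 2 of the 5 were members.

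The glycoprotein of sigma virus, a rhabdovirus that infects *Drosophila* and passes from parent to offspring, was the best match of contig05647, described as an outer coat protein. It read 8.67, 9.04 and 9.40 in GO, 7.97, 7.51, 7.75 and 8.90 in BO, and 7.20, 7.17, 7.01 and 7.79 in AD. Pool 4 was the highest of the BO pools and of the AD pools, and AD pool 4 lay above 2 BO pools. The contig was higher by 1.74 ± 0.38 in GO than in AD and by 0.74 ± 0.36 in BO than in AD, and by 1.01 ± 0.75 in GO than in BO. By limma the contig did not pass in BO against AD (adjusted p 0.27), and it passed in the other comparisons. Its reverse strand, named after its values were seen, showed the same pools highest, with 10.42, 10.08, 9.45 and 11.33 in BO and 8.71, 8.73, 8.50 and 9.60 in AD. Of 5 contigs with a viral description, 1 of which is also a transposon contig, 2 passed as higher and 1 as lower in GO than in AD and 2 as lower in BO than in AD, and 1 that met the rule was left out by name. Of 6 contigs with a bacterial best match or a ribosomal RNA description 6 passed as higher in GO than in AD, beside 0.77% of all contigs, a count built in by their choice from the study's called contigs, and 1 passed as higher in BO than in AD, beside 0.327%. Of the 6, 3 were members, among them both transposases, and contig04633 was left out by name.

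The remaining described members matched *Drosophila* proteins without a stated function. The level of contig02582 was 11.44, 12.40 and 12.78 in GO, 10.36, 12.04, 14.07 and 11.82 in BO, and 9.68, 9.69, 11.10 and 9.66 in AD, with pool 3 highest in BO and in AD and with BO pool 1 below AD pool 3. For contig05204 it was 8.91, 9.72 and 10.36 in GO, 8.04, 7.92, 10.04 and 7.90 in BO, and 7.51, 8.11, 7.57 and 7.56 in AD. BO pool 3 stood more than 1 log2 unit above the other BO pools, and the other 3 BO pools overlapped the AD pools. In contig06116 the channels read 7.38, 7.96 and 8.63 in GO, 7.34, 7.27, 8.32 and 7.21 in BO, and 6.77, 6.55, 6.79 and 6.69 in AD, and BO pool 3 was again the highest BO pool. GO minus AD was 2.21 ± 0.97, 1.96 ± 0.55 and 1.27 ± 0.50 for the 3 contigs in the order given, and BO minus AD was 2.03 ± 0.68, 0.75 ± 0.43 and 0.80 ± 0.45. By limma all 3 passed in GO against AD, and none of them passed in BO against AD. No member came from 10 heat shock contigs, of which 3 passed as higher in GO than in AD and 0 passed in BO against AD by limma (3 lower at an unadjusted p below 0.05). No member came from 30 housekeeping contigs either, of which 0 passed by limma in either comparison with AD and 1 passed as higher in GO than in BO, while at an unadjusted p below 0.05 there were 6 higher and 4 lower in GO against AD and 4 higher and 3 lower in BO against AD. The heat shock medians were 1.59 in GO minus AD and -0.89 in BO minus AD. The housekeeping medians were 0.04 in GO minus AD and 0.04 in BO minus AD. On both of these lists were contig00907, contig02774 and contig04923, the last being the 1 housekeeping contig that passed as higher in GO than in BO.

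Many members differed widely between pools of 1 regime. The SD over 4 channels had a median of 0.301 among members in GO channels on arrays with AD, 0.35 in BO channels and 0.237 in AD channels, beside 0.11, 0.143 and 0.113 over all contigs. An SD above 1 was found in 16, 20 and 10 members, beside 0.731%, 1.05% and 0.463% of all contigs. In at least 1 set of channels the SD was above 1 for 33 members, of which 2 passed the thresholds in GO against AD and 0 in BO against AD (2 at an unadjusted p below 0.05 by limma), whereas of the other 96 members 60 and 38 passed. Spread between pools also enters limma's p-value, so nothing is read from that contrast. The rule averages over arrays with no limit on spread. Every GO channel was above every AD channel for 84 members, beside 6.65% of all contigs, every BO channel above every AD channel for 75, beside 10.3%, and both held for 64. On all 4 arrays shared by GO and AD, GO was higher in 92 members, on 3 of 4 in 32 and on fewer in 5. No share over all contigs was counted for the 64 or for these array counts, so nothing is read from these numbers.

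Leaving out 1 array lowered the GO minus AD value to below 0.5 of its full value in 16 members and the BO minus AD value in 32, and turned it below 0 in 2 and 8. In 7 of those 8 the omission of BO array 1 did so, and in some of them that of AD array 1 did too. The most extreme, chosen after their values were seen, were 3 contigs without a description, read above 9 in few pools. The signal of rc_contig07135 was 7.08, 14.41, 6.16 and 9.36 in GO on arrays with BO, 14.54, 6.21, 6.80 and 9.35 in GO on arrays with AD, 11.95, 7.71, 6.24 and 6.47 in BO, and 8.09, 6.37, 6.69 and 6.47 in AD. That of rc_contig02982 was 6.80, 12.02, 6.11 and 7.85 in GO on arrays with BO, 11.94, 6.17, 6.11 and 7.77 in GO on arrays with AD, 10.27, 7.04, 6.23 and 6.21 in BO, and 7.25, 6.19, 6.14 and 6.09 in AD. In contig09267 the values were 6.50, 11.52, 6.32 and 7.48 in GO on arrays with BO, 11.52, 6.39, 6.64 and 7.38 in GO on arrays with AD, 9.20, 6.13, 6.22 and 6.19 in BO, and 6.44, 6.27, 6.15 and 6.16 in AD. All 3 were highest in the GO channel of array 2 with BO, in that of array 1 with AD and in BO pool 1. Over 12688 contigs the deviations of those 2 GO channels from their set's mean correlated at 0.898, as a description of channels on 1 slide that may hold 1 extract, and GO channels of arrays 3, 1 and 4 with BO correlated in this way with those of arrays 2, 3 and 4 with AD, at 0.914, 0.755 and 0.883. The labels do not say which GO channels share an extract, and the fit does not take it into account. Without array 1 of the AD set, GO minus AD was 0.94 for rc_contig07135 in place of 2.32 and 0.54 for rc_contig02982 in place of 1.58. Without BO array 1, BO minus AD was -0.85 for rc_contig07135 and -0.59 for rc_contig02982, and without AD array 1 it was -0.21 and -0.22. These 2 were well above background in 3 and 1 of the 4 AD channels and in 2 BO channels each. For contig09267, well above background in none of the AD channels and in 1 BO channel, only a bound can be given over all arrays, at least 3.1-fold higher in GO than in AD. That bound rests largely on the GO channel at 11.52. Without AD array 1 its fitted values fell to 0.61 in GO minus AD and -0.41 in BO minus AD. Without BO array 1 its BO minus AD was -0.53.

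Wide spread was seen in AD pools as well. For rc_contig01339 the AD pools read 14.68, 11.28, 8.82 and 14.68 against 16.06, 14.90, 13.04 and 15.55 in BO, and its GO minus AD difference was 1.30 ± 3.16. In contig08532 they read 13.61, 7.40, 11.95 and 9.97, against 12.16, 13.46, 11.10 and 12.29 in BO. A single BO pool carried contig04150, at 14.71, 7.40, 10.29 and 9.27 in BO and 8.83, 10.60, 9.34 and 8.59 in AD, and its BO minus AD value of 1.09 was -0.35 without that pool. These contigs, too, were chosen after their values were seen, and none passed the thresholds.

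**Figure D5:**
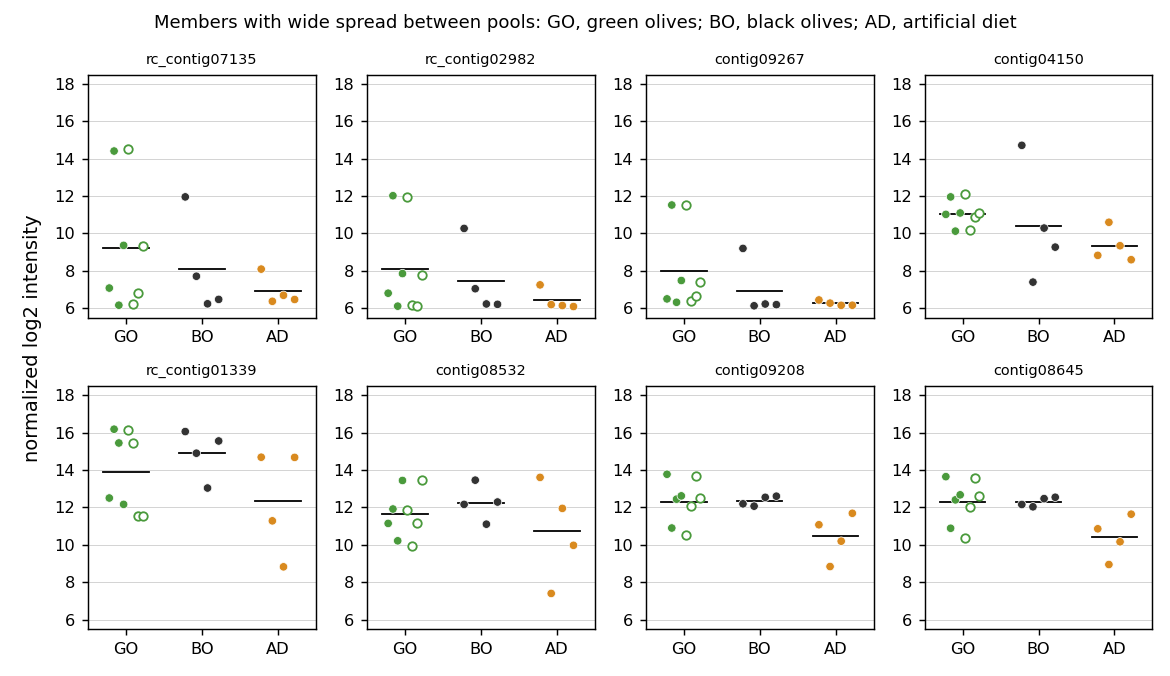
Normalized log2 intensity (y axis) of 8 members with wide spread between pools, with GO on the left, BO in the middle and AD on the right; open green points are GO channels on arrays with AD, and bars are means. In rc_contig07135, rc_contig02982 and contig09267 a filled and an open GO point and 1 BO pool stand above the rest, and in contig04150 a single BO pool at 14.71 does.

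Of 114 members with more than 1 probe, 103 had every probe above 0 in both comparisons with AD, 49 had every probe at or above 1 in GO minus AD, and the probes of a contig spanned a median of 0.44 log2 units in GO minus AD. Probes of some leading members lay far apart. The 3 probes of rc_contig03638 were at 0.25, 5.60 and 5.70 in GO minus AD and at -0.17, 3.56 and 3.78 in BO minus AD. Those of r_contig00541_rc(1475-1690) were at 4.98, 6.14 and 1.45 in GO minus AD, and the 2 probes of contig12892 at 4.19 and 6.67. By contrast the 3 probes of contig10633 were between 2.24 and 2.40, while contig13923 and rc_contig14214 rest on 1 probe each. In the AD channels 101 members were well above background in all 4, 17 in 1 to 3 and 11 in none. For those 11 the difference is bounded only, with GO at least 1.15-fold to at least 4.74-fold higher than AD, and the upper end belonged to the reverse strand of contig02335. In all 4 BO channels 116 members were well above background, and 5 were in none. Those 5 were among the 11, so their BO minus AD values compare signals not read above background in either regime. No bound is given for BO over AD in these 5, and they are members by the rule's arithmetic only. Within the Cy3 dye alone, BO minus AD had a median of 1.02 over the members (range 0.05 to 4.13). It lay a median of 0.07 and at most 0.63 from the fitted value.

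The scanner's ratio and the normalized value differed most in dim members. Members were chosen on the scanner's ratio, and whether this choice or the normalization made the difference was not tested. In the 47 members with a mean level below 8, the median GO minus AD was 1.63 on the scanner's ratio and 0.59 after normalization, which adds an offset of 50 to each signal. In the 56 members from 8 to 12 the medians were 1.87 and 1.49, and in the 26 at 12 or above 2.33 and 2.31. Past the thresholds in GO against AD were 12, 26 and 24 of these members.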

How the data were processed

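RNA of 2nd-instar *B. oleae* larvae was read on 8 arrays of 1 slide. The authors deposited 1 file of Feature Extraction output per array (version 10.7.3.1 per the file headers), with median pixel intensity and background intensity of every spot in both channels, not normalized, a log10 ratio of processed Cy5 over Cy3, and other values such as background flags. The deposited value table held the same log10 ratios, within 0.005. The rule for the members used the scanner's log10 ratio. All other values start from the deposited intensity values. As the methods name, they were corrected by normexp (offset 50) and normalized by loess and Aquantile in limma 3.58.1 under R 4.3.3.

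The 1319 control spots of each array were removed after background correction, and outlier spots had weight 0. Spots were averaged to probes and probes to contigs. A linear model with empirical Bayes statistics was fitted to all 8 arrays and 20516 contigs, with Benjamini-Hochberg adjustment (adjusted p below 0.05, absolute log2 fold change above 1), and was tested on simulated data. The 4 pools per regime limit the precision.

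The members and lists were chosen with earlier results of these data known. Members were named if they were among the 10 with the largest smaller-of-2 difference from diet, had a description or a primer, lay at the edge of the rule, or were segments or strands of contig00541, contig07171, contig04633 or contig12892. Lists for digestion, detoxification, heat shock, amino acid metabolism, transposons, viruses, ribosomal RNA or bacterial matches, and housekeeping follow the text of the study's tables. The authors' fold changes there were not used. A bound divides the brighter group's mean by that of the dim group, where on each array the dim contig takes at least the lowest signal of any probe well above background. Alternatives covered signal, normalization, probe summary, filters, test, design and each array left out.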

Additional observations from a re-analysis of the deposited data

Results flagged for a closer look

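Of 120 sets of 4 channels of the named members, 13 held a channel far from the other 3 (Dixon's criterion on its gap to the nearest, relative to the range). Chance flags about 1 in 20 such sets, and sets of related contigs or of repeated extracts are not independent. Low GO channels made up 6 of them, of which 5 were in contigs graded from GO over BO to AD. In rc_contig07171 the GO channel of array 2 with BO was at 13.07 (nearest 13.84) and that of array 1 with AD at 13.01 (nearest 13.79). These 2 channels were low in contig12892, at 12.87 (nearest 13.58) and 12.92 (nearest 13.47), and that of array 1 with AD was also low in rc_contig03638, at 10.14 (nearest 10.92). These GO channels are those in which rc_contig07135, rc_contig02982 and contig09267 were highest.

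High single pools were found in BO pool 2 for rc_contig04969 (11.30, nearest 9.76) and in BO pool 3 for contig05204 (10.04, nearest 8.04) and contig06116 (8.32, nearest 7.34). In AD they were found in pool 3 for contig02582 (11.10, nearest 9.69), in pool 2 for contig05204 (8.11, nearest 7.57) and in pool 1 for rc_contig12892 (11.48, nearest 11.26). In GO on array 3 with BO, contig01395 was low (12.18, nearest 12.43) and contig02335 high (7.72, nearest 7.50).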

How the results depend on the processing

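Under every alternative run, the members' median stayed above 0 in all 3 comparisons. The rule selects for this in those with AD. In GO minus BO the rule set a lower limit and no upper limit, which also favours a median above 0. The sign of the medians is therefore not independent evidence in any of the 3 comparisons. With the scanner's processed log ratio the medians were 1.88 in GO minus AD and 1.54 in BO minus AD. The series' value table, which holds the same ratios, gave 1.88 and 1.54. The members were chosen on this ratio, so these medians are no check of the processing. Limma's treat left 29 members past its threshold in GO against AD, 8 in BO against AD and 0 in GO against BO, where 9 had an unadjusted treat p below 0.05 and the reported limma fit called 16. With the replicate number as a block, 18 members passed in BO against AD, all of them among the 38, while 49 of the 62 passed again in GO against AD and 15 of the 16 in GO against BO. Same-numbered GO channels of the 2 sets deviated together only for number 4 (0.88, the other 3 below 0), so the numbers were not taken as pairs. Leaving out 1 array gave 54 to 63 members in GO against AD, 29 to 35 in BO against AD and 11 to 17 in GO against BO. The medians then ran from 1.20 to 1.35, from 0.90 to 1.24 and from 0.06 to 0.37, the last without BO array 2 at its low end. Applied to normalized ratios, the rule's thresholds kept 79 contigs, 77 of them members, and without the signal requirement 171.

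Over all contigs, those past the thresholds in GO against AD were 216 in the reported fit, 620 with the scanner's ratio or value table, 38 with treat, 120 with the block and 129 without AD array 4. In BO against AD they were 192, with 17 under treat, 34 with the block, 122 with the slide's row, 314 in the separate-channel model, 123 without AD array 1 and 118 without AD array 3. In GO against BO they were 462, 965 with the scanner's ratio or value table and 19 with treat. An alternative with mean pixel signals was not run. Signal over background limits the 11 members not well above background in AD, of which 5 were not well above background in BO either.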
